A study of Rattus norvegicus with 6 samples.

Results

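The genes of prostaglandin synthesis, EP receptors and prostaglandin breakdown described here are Pla2g4a, Ptgs1, Ptgs2, Ptges, Ptges2, Ptgis, Ptgds, Ptger2, Ptger4 and Hpgd. These 10 genes were chosen by symbol, and all 10 were found among the 22573 gene rows used.

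Prostaglandins are lipid mediators made on demand from arachidonic acid, and prostaglandin E2 is the one best known in inflamed cartilage and disc tissue. Cytosolic phospholipase A2 frees arachidonic acid from membranes, the cyclooxygenases COX-1 and COX-2 turn it into prostaglandin H2, and terminal synthases turn that into prostaglandin E2, prostacyclin or prostaglandin D2. Prostaglandin E2 acts on EP receptors, of which EP2 and EP4 raise cyclic AMP, and it is inactivated by a dehydrogenase.

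RNA was sequenced from nucleus pulposus cells, the cells of the soft core of the intervertebral disc, of Sprague Dawley rats. Of the 6 libraries, 3 came from cells under cyclic tensile strain and 3 from cells classed as control. The strained cells were stretched on a Flexcell tension plus system to 18% elongation at 0.2 Hz for 24 h. The stretching text stands on the control samples too, so that these were unstretched rests on their class label. The labels give no age or sex of the rats and no culture history, and do not say whether replicates came from separate animals. The p-values set the difference between the groups against the spread among samples of a group. That spread may be technical variation only, so the p-values may not extend to other animals.

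The deposited values are FPKM, fragments per length of transcript and per number of mapped fragments, so levels of different genes can be set side by side. They keep no fragment totals, and sequencing depth is unknown. Of all genes, 10180 averaged at least 1 FPKM over the 6 libraries and were tested, and 35.4% of them were called at an adjusted p under 0.05 by limma, 16.4% higher and 19.0% lower under strain. That split, 1672 higher and 1936 lower, turned when all libraries were rescaled to the same total (2067 higher and 1537 lower) or to the same upper quartile (2272 higher and 1556 lower). Without control replicate 1, 2375 genes were called, 1047 of them higher. Some markers of notochord-derived nucleus pulposus cells were at or near 0: T (brachyury) reached at most 0.119 FPKM, Krt19 at most 0.071 FPKM, and Shh was listed at 0 in all 6 libraries. Krt8 was present (6.86 to 11.3 FPKM under strain and 2.85 to 5.40 FPKM in controls), as was Cd24 (3.57 to 5.68 FPKM over the 6 libraries). Other markers of the tissue were present, such as Acan (35.1 to 41.2 FPKM under strain and 24.2 to 43.3 FPKM in controls) and Pax1 (9.24 to 11.4 FPKM under strain and 3.0 to 3.70 FPKM in controls). Col2a1 was low, at 0.445 to 1.41 FPKM under strain and at most 0.0682 FPKM in controls. Of 19 such markers 12 were tested, of which 8 rose and 2 fell, and their part in the results below was not tested.

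The results turn on the inducible enzymes Ptgs2 and Ptges, on Ptgs1, the constitutive counterpart of Ptgs2, and on Hpgd. The 250 bases before the annotated start of each of these genes are therefore shown first, 5′ to 3′ on the gene's strand, from RefSeq on build GRCr8. Capitals mark matches, on either strand, to any of 8 motifs. These are the TATA box TATAAA, the E-box CACGTG, the cyclic AMP response element (CRE) TGACGTCA, its shorter core TGACG, which the full element contains, the AP-1 site TGANTCA, a C/EBP-like site TTNNGNAA, the GC box GGGCGG, and an NF-kB-like site of GGG and CC with any 5 bases between them.
Ptgs2, chr13:64713813-64714062, plus strand: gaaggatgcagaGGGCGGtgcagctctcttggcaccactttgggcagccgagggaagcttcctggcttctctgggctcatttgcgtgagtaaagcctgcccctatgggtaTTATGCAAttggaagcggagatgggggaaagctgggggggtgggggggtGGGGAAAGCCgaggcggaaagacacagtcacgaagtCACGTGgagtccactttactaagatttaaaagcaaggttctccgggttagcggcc
Ptgs1, chr3:39981169-39981418, plus strand: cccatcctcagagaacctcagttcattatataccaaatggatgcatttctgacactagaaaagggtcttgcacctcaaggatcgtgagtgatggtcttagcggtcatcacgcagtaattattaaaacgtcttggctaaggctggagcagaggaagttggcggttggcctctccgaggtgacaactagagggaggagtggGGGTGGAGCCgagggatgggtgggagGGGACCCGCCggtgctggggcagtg
Ptges, chr3:34586988-34587237, minus strand: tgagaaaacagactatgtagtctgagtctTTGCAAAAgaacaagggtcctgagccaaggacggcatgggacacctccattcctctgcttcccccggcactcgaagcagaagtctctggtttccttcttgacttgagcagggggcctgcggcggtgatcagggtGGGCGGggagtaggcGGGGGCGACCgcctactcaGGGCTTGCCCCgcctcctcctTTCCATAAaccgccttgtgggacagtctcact
Hpgd, chr16:39034832-39035081, minus strand: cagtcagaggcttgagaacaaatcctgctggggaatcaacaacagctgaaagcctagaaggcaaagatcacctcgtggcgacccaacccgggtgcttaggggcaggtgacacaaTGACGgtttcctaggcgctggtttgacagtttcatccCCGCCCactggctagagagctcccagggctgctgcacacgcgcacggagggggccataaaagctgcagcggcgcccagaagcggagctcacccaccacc

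In the Ptgs2 window the E-box CACGTG lies 55 to 50 bases before the start, and 5.59% of the 33469 promoter windows in the table hold that motif. The same window holds the C/EBP-like site TTATGCAA at 140 to 133 bases before the start and the NF-kB-like site GGGGAAAGCC at 91 to 82. These looser motifs are common: 37.2% of all windows hold the C/EBP-like pattern, 42.3% the NF-kB-like one and 30.5% the GC box. The Ptges window has NF-kB-like matches from 72 to 63 and from 53 to 43 bases before the start, the second being 2 matches that overlap, and C/EBP-like matches at 221 to 214 and 32 to 25. The Ptgs1 window has 2 NF-kB-like matches and none to the other motifs, and the Hpgd window has the CRE core TGACG at 136 to 132 bases before the start (18.2% of windows). Windows of the other called genes are not shown. That of Pla2g4a has a TATA box match at 108 to 103 and overlapping C/EBP-like matches, but no NF-kB-like match. That of Ptger4 has no match to any of the 8 motifs. Ptger2, which was not called, has an NF-kB-like match at 66 to 57. A match of letters is a description and shows no binding. Of the 10 genes 8 had a promoter entry, and Ptges2 and Ptgis had none. The windows of Ptgs2 and Pla2g4a both lie on chromosome 13, that of Pla2g4a at 64572353-64572602 on the minus strand.

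Under strain, transcripts of the inducible enzymes of prostaglandin E2 synthesis fell steeply, the transcript of the enzyme that inactivates the product rose, and the constitutive enzymes Ptgs1 and Ptges2 were not called. Ptgs2 and Ptges fell 9.08-fold and 6.23-fold, Ptger4 2.41-fold and Pla2g4a 1.65-fold as ratios of mean FPKM, while Hpgd rose 3.11-fold. Of the 10 genes, 8 averaged at least 1 FPKM and were tested, and 4 of them were called lower (19.0% of all tested genes were), 1 higher (16.4% of all tested genes were) and 3 in neither direction. The 1 called higher, Hpgd, reached that mean only through its strained libraries (2.92 FPKM on average, against 0.938 FPKM in controls). The 5 called genes are also the tested ones whose groups do not overlap, which was so in 51.9% of all genes tested. The median log2 fold change was -0.44 over the 8 genes and -0.01 over all tested genes.

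**Figure D1:**
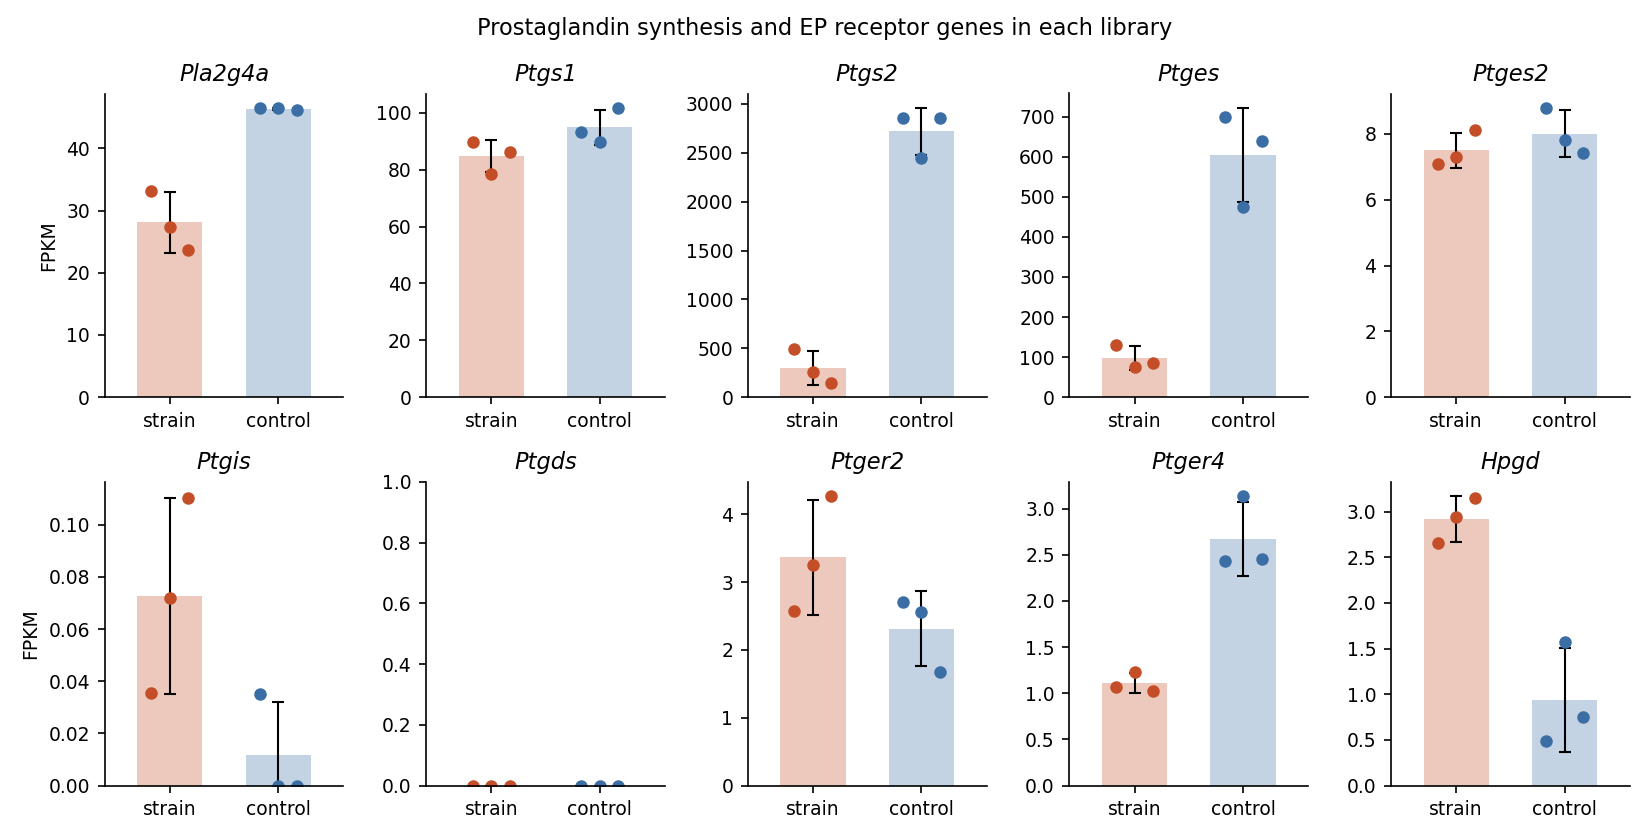
FPKM of the 10 genes in each library (points), with bars for the group mean and error bars for 1 SD (n = 3 per group, cut at 0), strained cells left of controls and a separate linear axis for each gene. The strain points of Ptgs2, Ptges, Pla2g4a and Ptger4 all lie below the control points, those of Hpgd lie above them, and Ptgds is listed at 0 in all 6 libraries.

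Pla2g4a encodes the cytosolic phospholipase A2 that supplies arachidonic acid. It stood at 33.2, 27.4 and 23.6 FPKM in the 3 strained libraries, against 46.5, 46.5 and 46.2 FPKM in controls. The controls were close to one another (SD 0.136 FPKM), and all strained libraries were lower. The log2 fold change was -0.72 ± 0.12 (SE; adjusted p = 0.0021 by limma).

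Ptgs2 encodes COX-2, the cyclooxygenase that inflammatory signals induce. It was at 490.5, 258 and 149.6 FPKM under strain, against 2856, 2444 and 2858.5 FPKM in controls. No strained library came near a control, but strain replicate 1 was well above strain replicate 3 and the spread within the strain group was wide (299.5 ± 174 FPKM under strain and 2719 ± 239 FPKM in controls, SD, n = 3 each). Among all gene rows of a library, Ptgs2 ranked 83rd, 169th and 338th by FPKM under strain, and 6th, 8th and 6th in the controls. The log2 fold change was -3.34 ± 0.39 (SE; adjusted p = 0.00094 by limma), the 31st lowest of the 10180 genes. In bulk RNA, fewer cells with a transcript and less of it in each cell cannot be told apart.

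Ptgs1 encodes COX-1, the constitutive cyclooxygenase. It was at 89.8, 78.5 and 86.1 FPKM under strain, against 93.3, 89.7 and 101.7 FPKM in controls. The groups overlap, and the log2 fold change of -0.16 (95% interval -0.37 to 0.05, limma) was not called (adjusted p = 0.21). That interval leaves room for a fall by 0.37 on the log2 scale.

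Within a library, the cyclooxygenase transcripts stood in different proportions in the groups. The FPKM of Ptgs2 was 5.46, 3.29 and 1.74 times that of Ptgs1 under strain, against 30.6, 27.2 and 28.1 times in controls. On the log2 scale of (FPKM + 1) the ratio averaged 1.64 ± 0.82 under strain and 4.82 ± 0.09 in controls (SD, n = 3 each). The difference of -3.18 gave p = 0.10 in a two-sided exact permutation test, the smallest p that 3 against 3 allows (adjusted p = 0.10 over the 4 ratios tested). Ptgs2 stayed above Ptgs1 in every one of the 6 libraries.

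Ptges encodes microsomal prostaglandin E synthase-1, the terminal synthase induced together with COX-2. It was at 131, 75.7 and 84.3 FPKM under strain, against 700.2, 474 and 640.3 FPKM in controls. Strain replicate 1 was the highest strained library here too, and control replicate 2 the lowest control for both enzymes. The log2 fold change was -2.65 ± 0.22 (SE; adjusted p = 6.5e-05 by limma). Ptges2, which encodes the constitutive synthase of the membrane, was much lower and overlapped between the groups, at 7.09, 7.30 and 8.11 FPKM under strain and 8.79, 7.82 and 7.42 FPKM in controls. Its log2 fold change was -0.08 (95% interval -0.31 to 0.14; adjusted p = 0.54 by limma). The FPKM of Ptges was 10.4 to 18.5 times that of Ptges2 under strain and 60.7 to 86.3 times in controls, a difference in log2 ratio of -2.57 (exact permutation p = 0.10, adjusted p = 0.10).

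The transcripts of the synthases for other prostaglandins were scarce in both groups. Ptgis, the prostacyclin synthase gene, was at 0.0355, 0.0719 and 0.110 FPKM under strain, against 0.0350 FPKM in control replicate 1 and listed at 0 in the other controls. These values are too low for the test, and a fit with no filter on low values gave Ptgis an adjusted p = 0.099 by limma (23.3% of 16152 genes were called in that fit). Ptgds, the gene of a prostaglandin D synthase, was listed at 0 in every library. A listed 0 may be a failed estimate, since 2 of 77 ribosomal protein symbols were also listed at 0 throughout.

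The EP receptor genes were expressed at a low level, and Ptger4 fell while Ptger2 was not called. Ptger4, which encodes EP4, was at 1.07, 1.24 and 1.03 FPKM under strain, against 2.43, 3.13 and 2.45 FPKM in controls. All strained libraries were below all controls, and the log2 fold change was -0.79 ± 0.11 (SE; adjusted p = 0.00091 by limma). Ptger2, which encodes EP2, was at 2.57, 3.26 and 4.26 FPKM under strain, against 2.70, 2.56 and 1.68 FPKM in controls. Strain replicate 1 lay between the controls, and the log2 fold change of 0.39 ± 0.17 was not called (adjusted p = 0.10 by limma). Without strain replicate 1 it was 0.53 and was called (adjusted p = 0.045).

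Within a library, Ptger4 FPKM was 0.415, 0.379 and 0.241 times that of Ptger2 under strain, against 0.901, 1.22 and 1.46 times in controls. The log2 ratio was lower by 1.19 under strain, with -1.03 ± 0.31 under strain and 0.16 ± 0.24 in controls (SD, n = 3 each; exact permutation p = 0.10, adjusted p = 0.10).

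Hpgd encodes the dehydrogenase that inactivates prostaglandin E2. It was at 2.66, 2.94 and 3.15 FPKM under strain, against 0.488, 1.57 and 0.751 FPKM in controls. The strained libraries were close to one another and above all controls, while control replicate 2 was the highest control. The control mean was 0.938 FPKM, so the gene reached the filter of 1 FPKM only through its strained libraries. A fit with no filter called it higher too. In the main fit the log2 fold change was 1.05 ± 0.19 (SE; adjusted p = 0.0028 by limma). As the gene is low, that value depends on the pseudocount added to FPKM before taking log2: with 0.1 in place of 1 it was 1.68, and with 0.01 it was 1.79. The FPKM of Ptgs2 was 47.4 to 184.5 times that of Hpgd under strain, against 1552 to 5857 times in controls (log2 ratio lower by 4.39 under strain; exact permutation p = 0.10, adjusted p = 0.10).

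**Figure D2:**
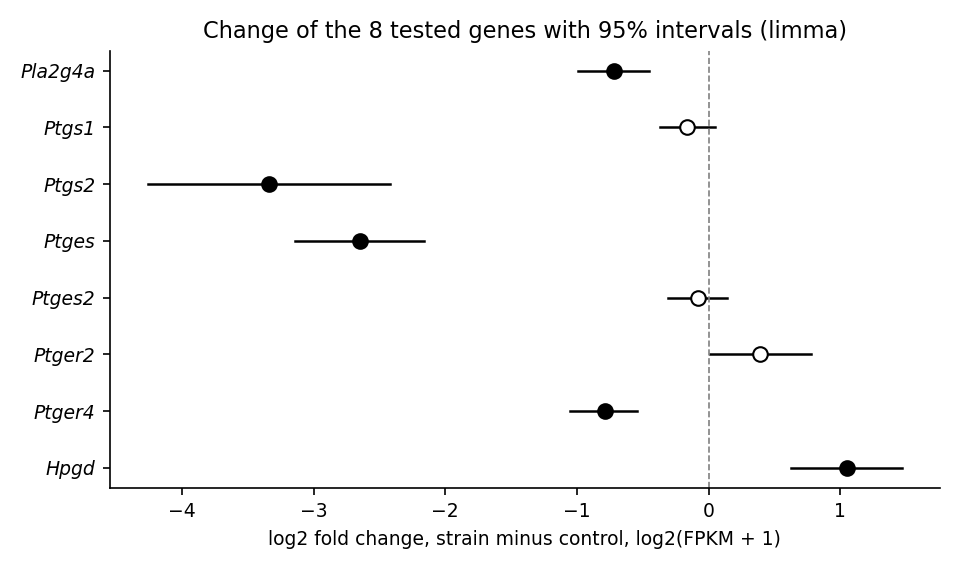
Log2 fold change of the 8 tested genes, strain minus control, on the log2(FPKM + 1) scale, with 95% intervals from limma; filled circles were called at an adjusted p under 0.05 and open ones were not. Ptgs2 at -3.34 and Ptges at -2.65 lie far to the left, Hpgd at 1.05 lies to the right, and the interval of Ptgs1 spans 0.

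**Figure D3:**
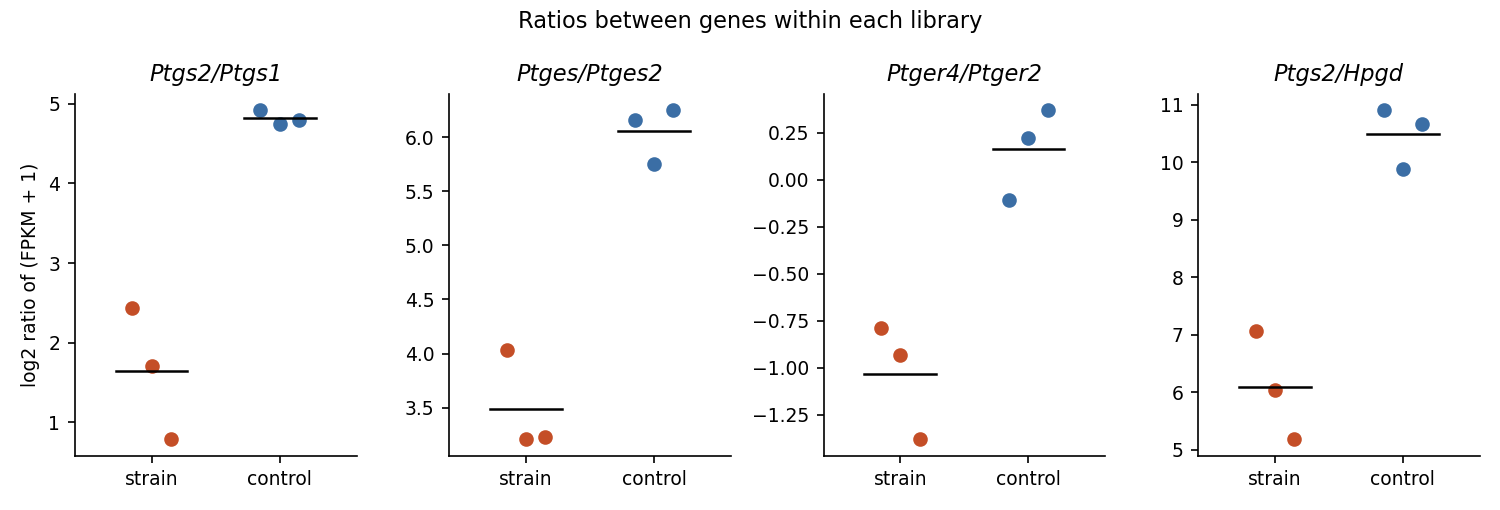
Log2 ratio of (FPKM + 1) between 2 genes within each library for 4 pairs, strained cells left of controls; points are libraries and lines the group means. In each pair the 3 strained libraries lie below the 3 controls, with mean differences between -1.19 and -4.39.

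The genes with the profile most like Ptgs2 over the 6 libraries were the cytokine gene Lif, the EGF receptor ligand gene Ereg, the serpin gene Serpinb3a and the hydroxycarboxylic acid receptor gene Niacr1. Likeness is the root mean square difference of log2(FPKM + 1) after centring each gene on its own mean. It was 0.14 for Lif, 0.22 for Ereg, 0.24 for Serpinb3a and 0.29 for Niacr1, against a median of 1.75 over all tested genes. Lif was at 61.5, 28.1 and 21.5 FPKM under strain, against 352, 294 and 318 FPKM in controls, so that strain replicate 1 was the highest strained library as it was for Ptgs2. Nearest to Ptges were the phosphatase gene Dusp5 (0.11), the immediate-early gene Ier3 (0.12) and the chemokine genes Cxcl16 (0.13) and Ccl20 (0.15), against a median of 1.36. Nearest to Hpgd were the LIM protein gene Fhl1 (0.07), Sorbs2 (0.09), the protease gene Adamts6 (0.10) and the sarcosine dehydrogenase gene Sardh (0.10), against a median of 0.59. Control replicate 2 was the highest control for all 4 of them, as for Hpgd.

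**Figure D4:**
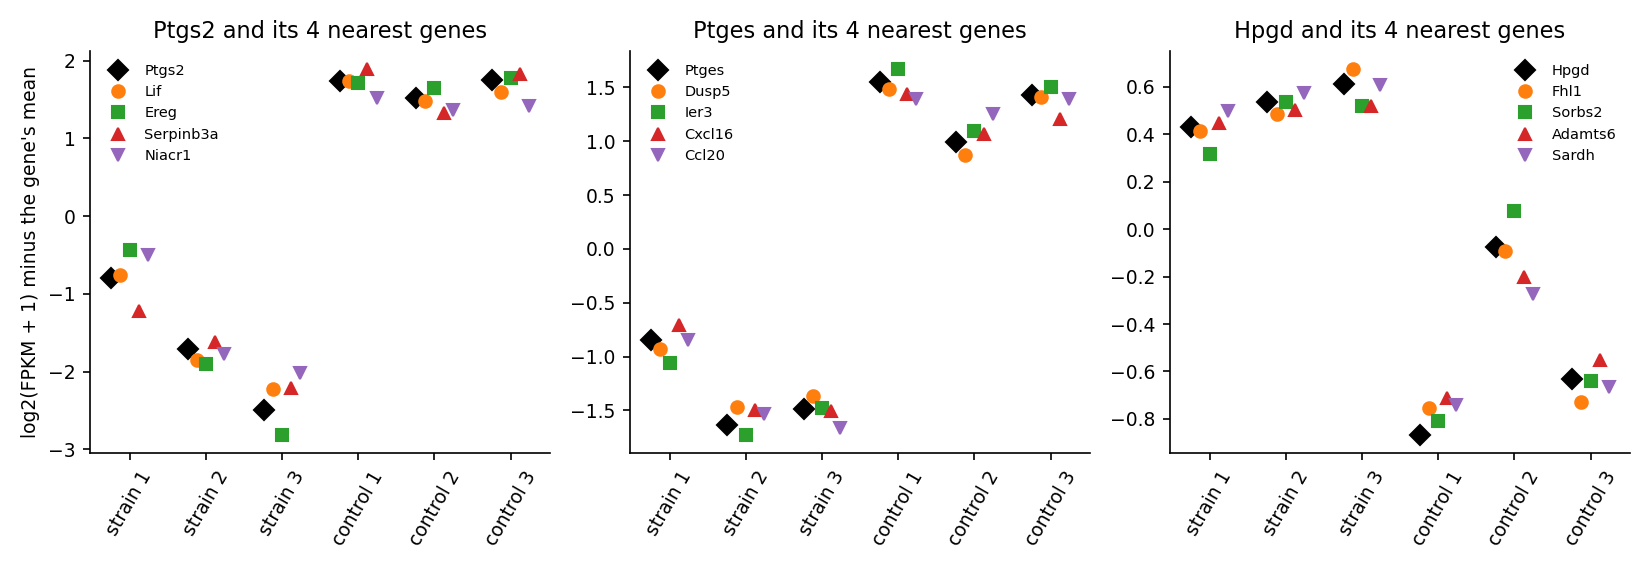
Log2(FPKM + 1) minus the gene's own mean over the 6 libraries, for Ptgs2, Ptges and Hpgd (diamonds) and the 4 tested genes nearest to each. The markers of a library fall close together; those of Ptgs2 and its neighbours are highest, among strained libraries, in strain replicate 1, and those of Hpgd and its neighbours are highest, among controls, in control replicate 2.

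Other genes around arachidonate release moved in both directions: of 20 in the list 11 were tested, of which 3 rose and 4 fell (median log2 fold change 0.13). Over all tested genes 16.4% were called higher and 19.0% lower. The secreted phospholipase gene Pla2g2a was at 152, 131 and 148 FPKM under strain, against 69.6, 57.4 and 56.5 FPKM in controls. All strained libraries were higher, in contrast to Pla2g4a, and the log2 fold change was 1.22 ± 0.11 (SE; adjusted p = 0.00010 by limma). Mgll, whose product hydrolyses monoacylglycerols, rose by 1.07 on the log2 scale. It reached the filter only through its strained libraries (2.26 FPKM on average, against 0.551 FPKM in controls). Pla2g7, which encodes a phospholipase of platelet-activating factor, was at 8.28 ± 1.36 FPKM under strain and 26.2 ± 2.90 FPKM in controls (SD, n = 3 each; adjusted p = 6.5e-05 by limma). Acsl4, which ties arachidonic acid to coenzyme A, fell by 1.06 on the log2 scale. Not every gene of the list releases arachidonic acid, so the counts give no direction of release. The other rise was Anxa1 and the other falls were Plaa and Lpcat3, the last of which was not called when any one of 4 libraries was left out (adjusted p = 0.074 to 0.094).

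Of the other prostanoid synthases and related reductases 8 of 10 were tested, and 3 rose and 3 fell (median 0.12). Beside these counts, 16.4% of all tested genes were called higher and 19.0% lower. The aldo-keto reductase gene Akr1b8 was at 45.9, 33.9 and 44.6 FPKM under strain, against 688, 337 and 573 FPKM in controls. It fell by more than Ptgs2 did, with a log2 fold change of -3.60 ± 0.25 (SE; adjusted p = 5.6e-05 by limma). Akr1b1, the aldose reductase gene, whose product can also make prostaglandin F2alpha, was at 71.7 ± 8.10 FPKM under strain and 166 ± 29.7 FPKM in controls (SD, n = 3 each; adjusted p = 0.00042 by limma). Ptges3, the cytosolic prostaglandin E synthase and HSP90 co-chaperone gene, fell by 0.39 on the log2 scale (adjusted p = 0.0063). The rises were in Cbr3, Cbr4 and Ptges3l, and of these 1 was called without control replicate 1 and 1 without control replicate 3. Hpgds and Tbxas1, the genes of haematopoietic prostaglandin D synthase and thromboxane synthase, were listed at 0 in all libraries.

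Among the other prostanoid receptors only 3 of 9 genes listed were tested, and all 3 were called. With 3 genes tested and 35.4% of all tested genes called, this count says little about the receptors as a group. Ptgir, the prostacyclin receptor gene, was at 3.14, 1.99 and 1.71 FPKM under strain, against 5.75, 4.11 and 6.79 FPKM in controls (log2 fold change -1.0 ± 0.19 SE, adjusted p = 0.0044 by limma). Ptgfr, the receptor gene for prostaglandin F2alpha, had a higher FPKM than Ptgir in every library. It was at 42.7, 43.7 and 28.2 FPKM under strain, against 19.9, 24.8 and 27.2 FPKM in controls. Strain replicate 3 was only just above the highest control, and the log2 fold change was 0.63 ± 0.18 (SE; adjusted p = 0.021 by limma). The call on Ptgfr was lost without control replicate 1 (adjusted p = 0.084), and likewise with either of the first 2 strained libraries left out (0.060 and 0.072). Ptgfrn, a negative regulator of that receptor, rose by 0.75 on the log2 scale. The EP receptor genes Ptger1 and Ptger3 were under the filter, with Ptger1 at 0.671, 0.490 and 0.408 FPKM under strain and 0.145, 0.119 and 0.107 FPKM in controls, and Ptger3 at most 0.158 FPKM in any library. The fit with no filter called Ptger1 higher (adjusted p = 0.0063 by limma).

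All 8 genes of transport and further breakdown were tested, of which 2 rose and 2 fell (median -0.09). For this list and the next, the shares over all tested genes were 16.4% called higher and 19.0% lower. Ptgr1, a reductase acting on prostaglandins after Hpgd, moved against Hpgd: it was at 13.4, 14.6 and 19.9 FPKM under strain, against 42.6, 38.1 and 37.9 FPKM in controls (log2 fold change -1.27 ± 0.14 SE, adjusted p = 0.00023 by limma). Slco2a1, the prostaglandin uptake transporter gene, was at 3.46, 2.06 and 1.70 FPKM under strain, against 1.04, 1.39 and 0.712 FPKM in controls (adjusted p = 0.021 by limma). The related transporter gene Slco3a1 fell by 1.14 on the log2 scale, and Scp2, of peroxisomal lipid breakdown, rose by 0.41. Neither Slco2a1 nor Scp2 was called without control replicate 1 (adjusted p = 0.059 and 0.052), nor Slco2a1 without control replicate 3 (adjusted p = 0.069). The lipoxygenases, the other enzymes that use arachidonic acid, were near 0: Alox5 reached at most 0.0501 FPKM and Alox15 at most 0.253 FPKM in any library. Of 19 genes of that branch in the files 5 were tested, of which Lta4h, Mgst2 and Mgst3 rose and Mgst1 fell (median 0.52). Mgst1 and Mgst3 each lost the call when single libraries were left out, both of them without control replicate 1 (adjusted p = 0.12 and 0.074) or strain replicate 2 (0.10 and 0.063).

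Of 20 tested genes of cyclic AMP signalling 2 rose and 5 fell (median -0.10). The share called was close to the 35.4% of all tested genes (16.4% higher and 19.0% lower). Gnas, which encodes the G protein subunit that couples EP2 and EP4 to adenylyl cyclase, was at 57.4 ± 10.8 FPKM under strain and 55.6 ± 2.38 FPKM in controls (SD, n = 3 each; adjusted p = 0.87 by limma). Both regulatory subunits of type II protein kinase A fell: Prkar2a was at 14.5 ± 2.28 FPKM under strain and 31.0 ± 0.740 FPKM in controls, and Prkar2b at 3.70 ± 0.374 FPKM under strain and 9.77 ± 1.41 FPKM in controls (adjusted p = 0.00022 and 0.00019 by limma). Adcy8, an adenylyl cyclase gene, fell by 1.10 on the log2 scale, and the other falls were Arrb1 and Crtc2. Crtc2 lost its call in 5 of the 6 fits that left out 1 library (adjusted p = 0.050 to 0.12). The rises were Creb3l1 (by 1.10 on the log2 scale) and the catalytic subunit gene Prkaca. Creb3l1 is a relative of Creb1, and its rise need not be one of cyclic AMP signalling.

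Of 16 tested genes known to respond to cyclic AMP, 8 fell and 1 rose (median -0.40), where 19.0% of all tested genes were called lower and 16.4% higher. Among the falls, Areg, Atf3 and Fosb reached the filter of 1 FPKM only through their controls. Their strain means were 0.256, 0.953 and 0.673 FPKM. With the filter at 5 FPKM, 7 genes of the list were tested, of which 3 fell and 0 rose. With no filter 17 were tested, of which 8 fell and 1 rose. Areg, an EGF receptor ligand gene, was at 0.256 ± 0.0481 FPKM under strain and 2.998 ± 0.496 FPKM in controls (SD, n = 3 each; adjusted p = 4.3e-05 by limma). Pde4b, a cyclic AMP phosphodiesterase gene, was at 39.0, 34.5 and 25.99 FPKM under strain, against 70.3, 67.5 and 65.7 FPKM in controls (adjusted p = 0.00067 by limma). Dusp1 fell by 0.71 on the log2 scale and Atf3 by 2.41. Control replicate 3 of Atf3, at 4.04 FPKM, was well below 14.0 and 13.8 FPKM in the other controls. Among the other falls, Nr4a3 lost its call without control replicate 1 or 2 or strain replicate 2 or 3 (adjusted p = 0.087 to 0.11 by limma). Per1 lost it without control replicate 2 or strain replicate 2 (0.057 and 0.062). The 1 rise was Pde3b, which reached the filter only through its strained libraries (1.72 FPKM on average, against 0.995 FPKM in controls). These genes also respond to other signals, and Nr4a1 and Fos, of the same list, were not called (adjusted p = 0.19 and 0.92), though Nr4a1 was called higher without control replicate 2 (adjusted p = 0.045).

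The list around the signals and transcription factors known to induce Ptgs2 and Ptges had 15 falls and 1 rise among 23 tested genes (median -0.76). Over all tested genes 19.0% were called lower and 16.4% higher. Not all the falls are of inducers: they include Nfkbia and Il1rn, the gene of the interleukin-1 receptor antagonist (log2 fold changes -1.69 and -1.15). The fall of Tgfb1 was called, with 1 library left out, only without strain replicate 3 (otherwise adjusted p = 0.067 to 0.13 by limma). That of Traf6 was not called without control replicate 1 or 3 (0.062 and 0.067). Nfkb2, Nfkb1 and Nfkbia of the NF-kB pathway and the AP-1 gene Fosl1 had the smallest p-values. Nfkb2 was at 12.1, 8.98 and 9.58 FPKM under strain, against 56.1, 48.3 and 48.1 FPKM in controls (log2 fold change -2.22 ± 0.12 SE, adjusted p = 1.7e-05 by limma). Nfkbia, which encodes the inhibitor IkB alpha and is itself a target of NF-kB, was at 79.9, 51.8 and 48.5 FPKM under strain, against 217, 185 and 174 FPKM in controls. Il1b, an inducer of both enzymes, was at 13.4, 5.58 and 4.12 FPKM under strain, against 135, 79.0 and 155 FPKM in controls (adjusted p = 0.0020 by limma). In Il1b, Nfkbia, Nfkb1 and Ptgs2, strain replicate 1 was the highest and strain replicate 3 the lowest strained library. In Nfkb2, Fosl1 and Ptges the lowest was strain replicate 2 (8.98, 12.4 and 75.7 FPKM). The 1 rise was Cebpd, which encodes C/EBP delta, at 149.7, 178 and 224 FPKM under strain and 71.3, 103 and 51.0 FPKM in controls, while Cebpb was not called (adjusted p = 0.16) except without strain replicate 3 (lower, adjusted p = 0.016).

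Of 10 tested genes of RNA-binding proteins known to act on the stability or translation of Ptgs2 mRNA, 1 rose and 3 fell (median -0.16). The share called was close to the 35.4% of all tested genes. Zfp36, which encodes the destabilising factor tristetraprolin, fell with its target, at 25.6 ± 2.64 FPKM under strain and 42.5 ± 4.22 FPKM in controls (SD, n = 3 each; adjusted p = 0.0013 by limma). Tia1, a translational repressor gene, rose by 0.52 on the log2 scale, and the other falls were Khsrp and Celf1. Celf1 was not called when any 1 library was left out (adjusted p = 0.052 to 0.12), and Khsrp was not called without any of the controls or strain replicate 1 (0.055 to 0.073). Elavl1, which encodes the stabilising factor HuR, was at 13.6 ± 1.08 FPKM under strain and 16.1 ± 0.465 FPKM in controls and was not called (adjusted p = 0.068 by limma).

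**Figure D5:**
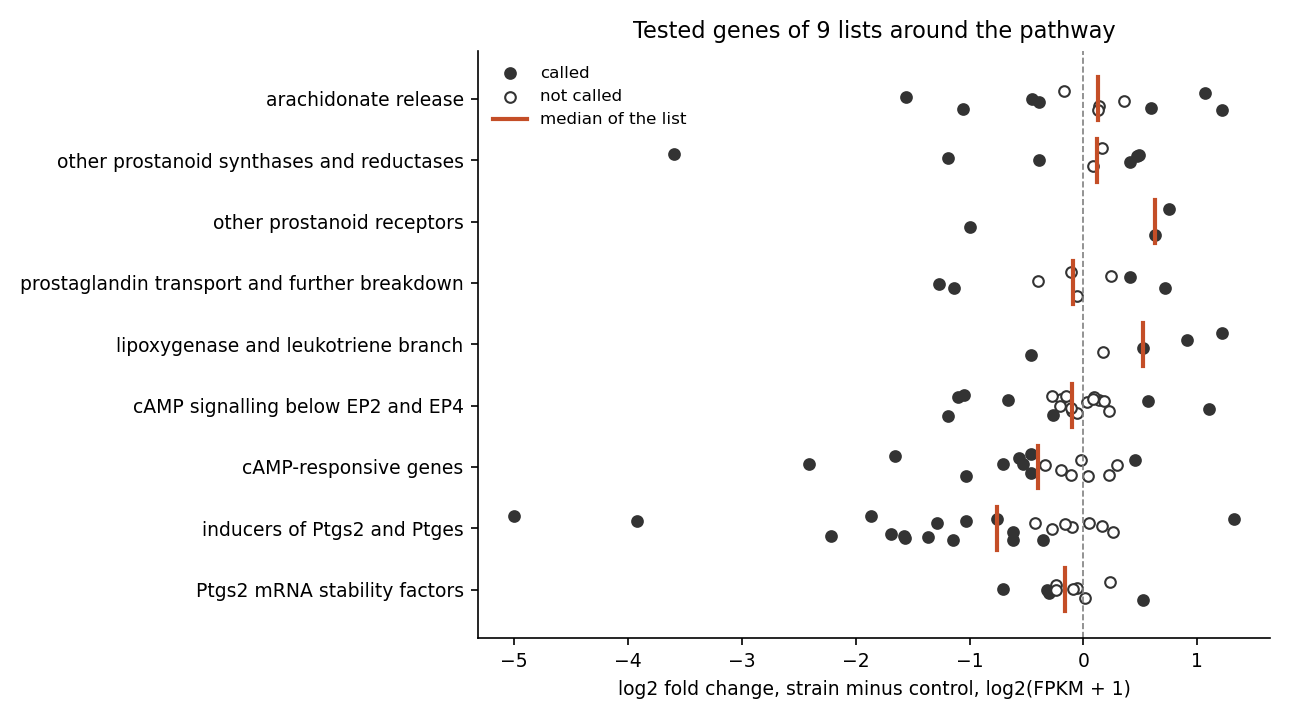
Log2 fold change, strain minus control, on the log2(FPKM + 1) scale, of each tested gene of 9 lists around prostaglandin synthesis; filled points were called at an adjusted p under 0.05, open points were not, and the vertical line is the median of the list. The list of inducers of Ptgs2 and Ptges has the lowest median (-0.76) and the genes furthest to the left.

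Cells of other types can carry these enzymes, so their markers are given beside the results. Over all tested genes 16.4% were called higher and 19.0% lower. Of 16 macrophage markers 3 were tested: Cd68 fell to 0.633 ± 0.147 FPKM under strain against 1.53 ± 0.424 FPKM in controls, Adgre1 fell to 1.31 ± 0.10 FPKM under strain against 3.71 ± 1.92 FPKM in controls, and Lyz2 rose to 3.30 ± 1.62 FPKM under strain against 0.249 ± 0.142 FPKM in controls (SD, n = 3 each). The summed FPKM of that list was 5.40 to 8.45 under strain and 3.65 to 9.14 in controls, and the pan-leukocyte gene Ptprc was at most 0.0486 FPKM. None of 11 mast cell markers or 10 platelet and blood markers was tested, and 9 and 7 of them were listed at 0 throughout. Of 12 endothelial markers 2 were tested, of which 1, Eng, rose, and Cdh5 was listed at 0. The summed FPKM of the endothelial list was 21.1 to 25.8 under strain and 17.5 to 19.0 in controls. Most of that sum was Eng alone, at 16.4 to 20.0 FPKM under strain and 11.5 to 13.1 FPKM in controls. All 9 smooth muscle markers were tested, 2 of them rose and 7 were not called (summed FPKM 1154 to 1774 under strain and 964 to 1454 in controls). Of 10 fibroblast and annulus markers 9 were tested, of which 6 rose and 1 fell, with a summed FPKM of 6293 to 7549 under strain and 2877 to 3310 in controls. Most of that sum was Col1a1 alone, at 4519 to 5575 FPKM under strain and 1680 to 2167 FPKM in controls. The fall was Thy1, and Col1a2 was not called. Of 10 Schwann and meningeal markers 4 were tested, and 3 rose and 1 fell. Of 9 genes that mark dissociation stress or RNA quality 8 were tested: Jun, Egr1, Atf3 and Hsph1 fell and Actb rose. The part of such cells and of such stress in the changes of the prostaglandin genes was not tested.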

How the data were processed

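The authors deposited 1 FPKM value per gene symbol and sample. The submitters' processing notes name cutadapt 1.9.3, HISAT2 2.0.4 and Cuffdiff 2.2.1, besides Cufflinks and DESeq, without role or order. Annotation and strand handling are not stated. Their single named build is hg19, which is human, although the symbols are rat, so coordinates in the files were not used. That the unit is FPKM was inferred from these tools and the values, which sum to 308780 to 347508 per library. Low values gave no whole reads (3.04% to 13.0% of low genes shared the commonest ratio between 2 libraries), so depth and counting error are unknown.

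Of 22601 rows, 27 with a date for a symbol and 1 broken row were left out. Genes averaging at least 1 FPKM were tested on log2(FPKM + 1), which understates changes of low genes, with limma 3.58.1 in R 4.3.3 (trend and robust moderation, two-sided, Benjamini-Hochberg adjustment over 10180 genes, threshold 0.05). Folds without log are ratios of mean FPKM. Log2 ratios between 2 genes were tested with the exact permutation test over samples. The fit was also run on simulated data with the control means and within-group spreads of these libraries and independent noise (10180 genes, 200 changed, 20 runs). There it recovered 54.5% of 1.5-fold, 87.1% of 2-fold and 98.8% of 4-fold changes on the log2(FPKM + 1) scale, and 3.7% of calls were false. In the data 35.4% of genes were called, a much larger share than was changed there, so these rates need not hold for the calls given here.

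The 10 genes and the 9 lists were chosen with earlier results of these data known. The rule for named genes takes up to 4 called genes with the smallest p in each list, and the 4 nearest profiles, leaving out provisional symbols, of the 3 called genes with the largest change. Other list genes in the text were chosen after their values were seen. Promoters come from RefSeq tables of build GRCr8. The alternatives tried are given with their effect at the end.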

Additional observations from a re-analysis of the deposited data

How the results depend on the processing

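Over 15 alternatives (2 other pseudocounts, no filter, a filter at 5 FPKM, 3 other scalings, limma with no trend and no robust moderation, a replicate block and each library left out in turn), Ptgs2, Ptges and Pla2g4a were called lower in all 15, with log2 fold changes of -3.78 to -2.93, -2.89 to -2.49 and -0.84 to -0.60. Ptger4 and Hpgd kept their calls and directions in the 14 alternatives that tested them (-1.25 to -0.71 and 0.88 to 1.79), and Ptgs1 and Ptges2 were called in none of 15. With the filter at 5 FPKM, 3 of the 10 genes were called, 0 of them higher, because Ptger2, Ptger4 and Hpgd are no longer tested, and the count of genes called higher over all genes was 1071 of 6572 tested. Leaving out 1 library gave 5 to 6 of the 10 genes called, 1 to 2 of them higher, the 6th being Ptger2 without strain replicate 1. Over all genes it gave 2375 to 3576 calls, 1047 to 1528 of them higher, both lowest without control replicate 1; the cause was not tested. In these settings the median change over tested genes stayed between -0.03 and 0.05 (log2). The 4 log2 ratios kept their direction in all 11 alternatives run for each. Of 405 recounts of single lists, 38 differed by more than 1.5 times from the count given.

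Same-numbered strain and control libraries did not deviate together (correlations of deviations from the group means 0.033, 0.108 and -0.116 over tested genes), and not every library correlated best with its own number. The numbers were therefore not taken as pairs. With the replicate block 3116 genes were called against 3608, and the same 5 of the 10 genes. With 3 against 3, the exact test cannot go below p = 0.10, and the unknown depth limits what the low values of Ptgis, Ptgds, Ptger1 and Ptger3 can show.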
